A study of Homo sapiens with 12 samples.

Results

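Imprinted growth-regulating genes are expressed mainly from the copy inherited from 1 parent, and many of them promote or restrain growth of the embryo and placenta. Methylated control regions set during egg and sperm formation decide which parental copy is read, and neighbouring genes in a domain often share 1 control region. In many adult tissues these genes are turned down after birth, and several are expressed again in tumours of embryonic character, the class to which rhabdoid tumours belong. The genes described here are 10 members of that class: H19, PEG10, PEG3, MEST, DLK1, MEG3, NNAT, PLAGL1, NDN and GRB10. They were chosen by name, and each gene identifier of the deposited tables was matched to its symbol with the version number removed. All 10 were found among 57820 gene rows. The counts do not tell the parental alleles apart, so all values are the sum of both copies.

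RNA was sequenced from G401, an established human malignant rhabdoid tumour cell line of genotype SMARCB1(-/-), in 12 libraries. SMARCB1 encodes a core subunit of the SWI/SNF chromatin remodelling complexes, and all 4 groups share its loss from the genome. Doxycycline induced either GFP, a control protein, or SMARCB1, and each cell state was treated for 24 hours with DMSO, the solvent, or with dBRD9-A, a compound that leads to degradation of BRD9, a subunit of the non-canonical SWI/SNF complex. The groups were GFP cells in DMSO, GFP cells in dBRD9-A, SMARCB1 cells in DMSO and SMARCB1 cells in dBRD9-A, with 3 replicates each. The labels do not say whether the lines were clones, how long doxycycline was given, or whether replicates were separate cultures, so p-values measure only the spread between these samples, which may be technical.

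Library totals ran from 34.97 to 58.54 megacounts (expected counts summed over genes). SMARCB1 had 0 to 2 counts in every GFP library and 53033 to 110893 in every SMARCB1 library, which matched the labels. VIM, KRT8 and KRT18 were abundant in all groups. Of 5 blood and endothelial markers found, 4 had at most 3 counts in every library, and PTPRC and CD3E were at 0. The endothelial marker CDH5 had 0 counts in every GFP library, 3 to 10 in SMARCB1 DMSO and 4 to 7 in SMARCB1 dBRD9-A libraries. The summed count of the 5 was 0 to 2 in GFP DMSO and 6 to 13 in SMARCB1 DMSO libraries. Of 6 hepatocyte and stromal markers found, 4 had at most 3 counts in every library and TTR was at 0, while PDGFRA carried the sum, which was 4011 to 5691 in GFP DMSO and 377 to 593 in SMARCB1 DMSO libraries. Without PDGFRA the sum was 0 to 4 and 3 to 6. The part of these markers in the results was not tested.

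H19, MEST and PLAGL1 are 3 of the members that were higher with SMARCB1 (values below), and the 250 bases before an annotated start are shown for each. Which start is used in these cells was not tested, so a window need not be the active promoter of its gene. They were taken from RefSeq on GRCh38.p14, which is not the build named in the submitters' processing notes. H19 has 1 such window in the table, and MEST and PLAGL1 have 5 each. Of the windows of MEST and PLAGL1, 1 with the highest number of CpG dinucleotides of its gene is shown. Capitals mark the GC box GGGCGG, the letters bound by SP-family factors, on either strand.
H19, chr11:2001267-2001516, minus strand: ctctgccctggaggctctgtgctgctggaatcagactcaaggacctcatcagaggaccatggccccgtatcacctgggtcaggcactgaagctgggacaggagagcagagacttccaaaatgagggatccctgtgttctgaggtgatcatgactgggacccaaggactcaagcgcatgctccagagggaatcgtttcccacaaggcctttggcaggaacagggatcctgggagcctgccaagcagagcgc
MEST, chr7:130491835-130492084, plus strand: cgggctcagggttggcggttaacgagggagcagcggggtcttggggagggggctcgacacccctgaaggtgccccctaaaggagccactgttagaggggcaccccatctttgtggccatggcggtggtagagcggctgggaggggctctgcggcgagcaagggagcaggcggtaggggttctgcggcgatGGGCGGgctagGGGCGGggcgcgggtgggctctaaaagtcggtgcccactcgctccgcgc
PLAGL1, chr6:144008260-144008509, minus strand: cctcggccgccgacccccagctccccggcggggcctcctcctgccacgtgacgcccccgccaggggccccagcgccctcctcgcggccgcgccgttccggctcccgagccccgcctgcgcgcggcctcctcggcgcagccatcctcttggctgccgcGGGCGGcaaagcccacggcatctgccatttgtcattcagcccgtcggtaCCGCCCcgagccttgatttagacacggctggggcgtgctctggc
The H19 window held 4 CpG dinucleotides and no GC box. Whether the H19 RNA counted here began at that start was not tested. The MEST window held 20 and the PLAGL1 window 32, with 2 GC boxes each. These 2 windows were chosen for their CpG number, so they cannot be judged against all windows. The other MEST windows held 9, 20, 11 and 16 CpG dinucleotides, and only the last of these held GC boxes. The other PLAGL1 windows held 21, 1, 3 and 1, and only the first of these held GC boxes. Of 35116 windows of this length in the table, 42.6% held a GC box, and the median window held 11 CpG dinucleotides. The letters TATAAA were in none of the 3 windows and in 10.7% of all windows. The AP-1 letters TGANTCA were also in none of the 3 and in 6.57% of all windows. A PLAGL1 window that is not shown, chr6:143961413-143961662, held 1 match to each, that to TATAAA on the other strand. No other window of MEST or PLAGL1 held either. MEG3, NDN and GRB10 also had windows. PEG10, PEG3, DLK1 and NNAT had no entry.

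H19 and MEST also carry microRNAs within their transcribed regions, and the mature RefSeq sequences are shown because a change in the host transcript is the only reading these libraries give of them. Capitals mark the seed, bases 2 to 8, through which a microRNA pairs with its targets.
hsa-miR-675-5p, in H19: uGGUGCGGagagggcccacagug
hsa-miR-675-3p, in H19: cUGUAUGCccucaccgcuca
hsa-miR-335-5p, in MEST: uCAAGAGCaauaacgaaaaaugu
hsa-miR-335-3p, in MEST: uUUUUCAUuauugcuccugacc
The 4 seeds differ from each other. Mature microRNAs are not measured by libraries of polyadenylated RNA.

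With SMARCB1 induced in DMSO, 5 of the 10 genes rose (H19, PEG10, PEG3, MEST and PLAGL1), DLK1 fell, and the other 4 had too few counts to test. The 6 tested genes had passed a filter that asks for enough counts in at least 1 group's worth of libraries, so a gene near 0 in GFP cells could enter only through the group where it was high. Calls were common in this comparison: 65% of 15750 genes tested had an adjusted p under 0.05, 33.5% in the higher direction and 31.6% in the lower. With a further limit of 1 on the absolute log2 fold change, 5 of the 6 remained called, against 14.6% of all genes. In libraries from whole cultures, fewer cells that express a gene and less RNA per cell cannot be told apart.

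H19 is a maternally expressed noncoding RNA that shares a control region with the growth factor gene IGF2. It was at 5.25, 4.94 and 5.70 CPM in GFP DMSO libraries, and at 31.5, 29.9 and 30.9 CPM in SMARCB1 DMSO libraries. CPM is counts for every megacount of the library, with the library total multiplied by its TMM scaling factor. Every SMARCB1 library lay far above every GFP library. By the edgeR quasi-likelihood test H19 rose 5.78-fold, or 2.53 on the log2 scale (SE 0.0758), with an adjusted p of 4.8e-15.

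MEST, a paternally expressed gene for a protein of the hydrolase family, was nearly silent in GFP cells. Its counts were 2, 2 and 3 in GFP DMSO libraries and 195, 195 and 256 in SMARCB1 DMSO libraries. In CPM this was 0.0453 ± 0.00863 (SD, n = 3) against 4.81 ± 0.362 (SD, n = 3), with no overlap. The ratio of summed counts was 105, with a 95% counting interval of 50.7 to 262. The fitted log2 fold change was 6.65 (SE 0.276, adjusted p = 5.1e-13).

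PLAGL1, a paternally expressed zinc finger transcription factor that can arrest growth, was likewise low in GFP cells. Its counts were 9, 13 and 4 in GFP DMSO libraries and 240, 257 and 336 in SMARCB1 DMSO libraries. The groups did not overlap, and the summed counts gave a ratio of 36.5 (95% counting interval 24.7 to 56.2). The fitted log2 fold change was 5.17 (SE 0.21, adjusted p = 3.85e-13). It was 5.72 without GFP DMSO replicate 2 and 4.75 without GFP DMSO replicate 3, the GFP libraries with the highest and lowest count.

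PEG3, a paternally expressed zinc finger protein linked to growth and maternal behaviour, was at 8.48, 8.36 and 7.67 CPM in GFP DMSO libraries. In SMARCB1 DMSO libraries it was at 35.1, 38.4 and 41.8 CPM, all above the GFP values. PEG3 rose by 2.24 on the log2 scale (SE 0.0613, adjusted p = 1.31e-15).

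PEG10, a paternally expressed gene derived from a retrotransposon and needed for the placenta, was the most abundant member per length and moved little. Its level was 245, 248 and 239 CPM in GFP DMSO libraries and 262, 273 and 279 CPM in SMARCB1 DMSO libraries. The groups were separate but close. PEG10 rose by 0.15 on the log2 scale (SE 0.0309, adjusted p = 0.000302). Under scaling by the synthetic ERCC spike-in RNAs the value was 0.32, where the median of all genes was 0.17.

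DLK1, a paternally expressed membrane protein related to Notch ligands and a marker of immature cells, went the other way. Its counts were 61, 63 and 80 in GFP DMSO libraries and 2, 2 and 4 in SMARCB1 DMSO libraries. The level was 1.33 ± 0.226 CPM (SD, n = 3) against 0.0572 ± 0.0101 CPM (SD, n = 3). The ratio of summed counts was 22.4-fold in favour of GFP cells (95% counting interval 11.2 to 52.6). DLK1 fell by 4.43 on the log2 scale (SE 0.349, adjusted p = 4.04e-09).

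**Figure D1:**
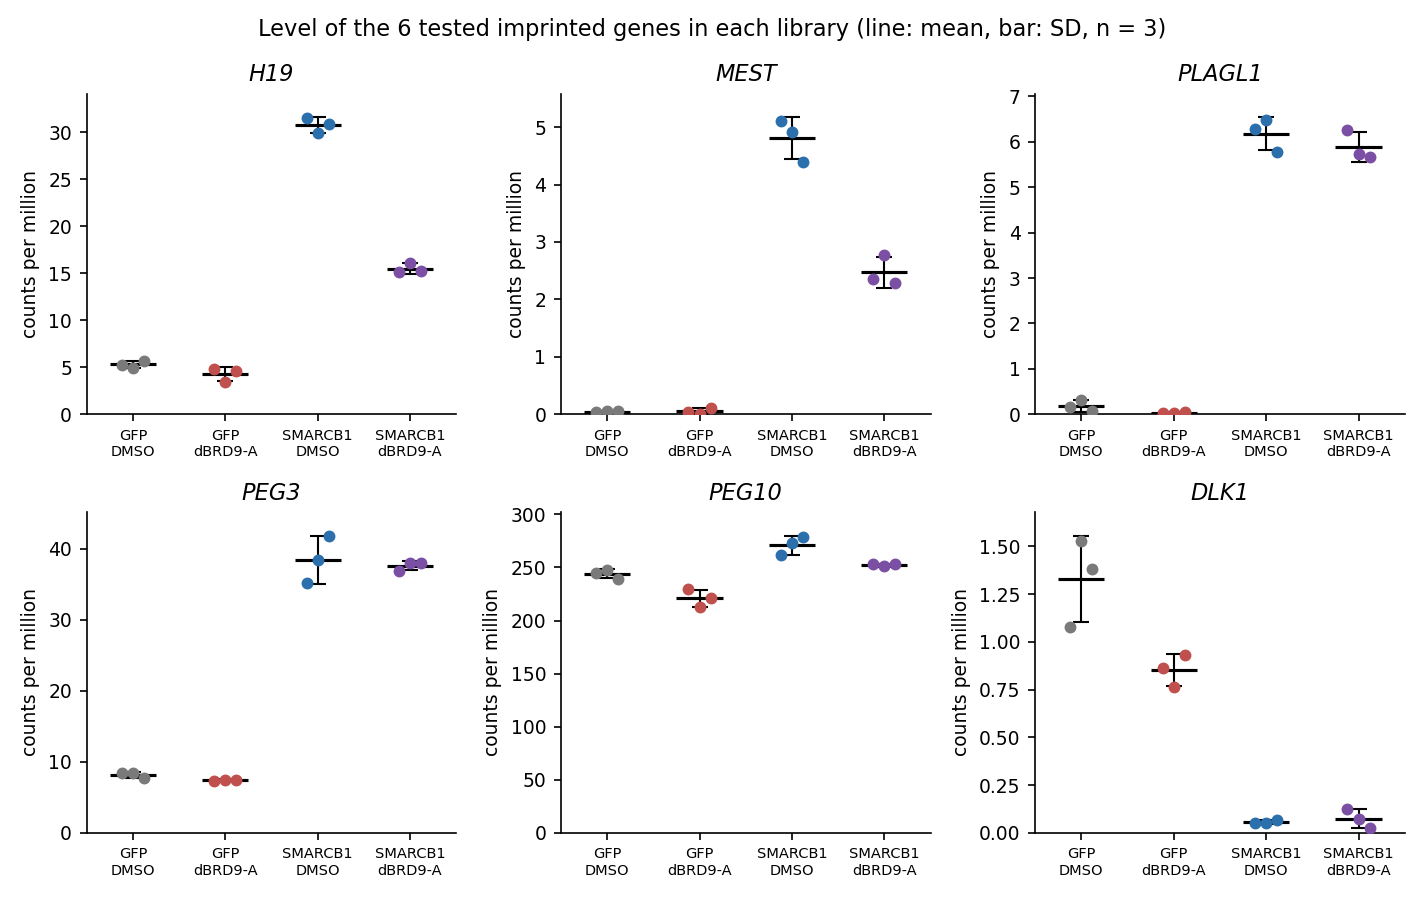
Level in CPM (vertical axis, from 0, a separate scale in each panel) of the 6 tested genes in each of the 12 libraries by group; points are libraries, horizontal lines means and bars SD (n = 3). H19 lay between 29.9 and 31.5 in SMARCB1 DMSO libraries and between 4.94 and 5.70 in GFP DMSO libraries, MEST and PLAGL1 were near 0 in GFP cells, and DLK1 was near 0 in SMARCB1 cells.

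The remaining members were at or near 0 in this line. MEG3, the maternally expressed noncoding RNA of the DLK1 domain, had 17 counts over the 12 libraries, with 4, 2 and 3 in GFP DMSO, 4, 1 and 0 in GFP dBRD9-A, 1, 1 and 0 in SMARCB1 DMSO, and 1, 0 and 0 in SMARCB1 dBRD9-A. In DMSO every GFP library had more counts than every SMARCB1 library, by 1 to 4 counts, and in dBRD9-A the counts overlapped. The ratio of summed counts, GFP over SMARCB1 cells in DMSO, was 3.95 with a 95% counting interval of 0.818 to 37.6. NNAT, a small proteolipid of developing neurons, NDN, a MAGE-family protein that restrains proliferation, and GRB10, an adaptor that dampens insulin and IGF receptor signalling, had 0 counts in all 12 libraries. A count of 0 over the 545.4 megacounts of all libraries allows a level of up to 0.0055 CPM for each of them, for counting error only. No difference between groups was detectable for these 4 at this depth.

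Set per kilobase of exon, with exon lengths from GENCODE 29 and not from the authors' annotation, the members spanned a wide range of levels. In GFP DMSO libraries PEG10 was at 36.5 ± 0.629 CPM per kb, H19 at 1.83 ± 0.132, PEG3 at 0.836 ± 0.0447, DLK1 at 0.25 ± 0.0425, PLAGL1 at 0.0207 ± 0.0142 and MEST at 0.00945 ± 0.0018 (all SD, n = 3). In this order each neighbouring pair was separated by more than its spread except PLAGL1 and MEST. In SMARCB1 DMSO libraries the order was PEG10 at 40.5 ± 1.33 CPM per kb, H19 at 10.6 ± 0.282, PEG3 at 3.93 ± 0.346, MEST at 1.0 ± 0.0755, PLAGL1 at 0.708 ± 0.0412 and DLK1 at 0.0108 ± 0.0019 (all SD, n = 3). DLK1 came before PLAGL1 and MEST in GFP cells and after them in SMARCB1 cells.

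With dBRD9-A in GFP cells, which lack SMARCB1, fewer members were called. PLAGL1, H19 and PEG10 fell and none rose, so 3 of the 6 tested were called, against 15.9% of all genes tested (7.43% higher and 8.47% lower). H19 and PLAGL1 each rest on calls close to the threshold. These comparisons and those with SMARCB1 share their GFP DMSO libraries.

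PLAGL1 had 1, 1 and 2 counts in GFP dBRD9-A libraries, against 9, 13 and 4 in DMSO. All treated values were below all control values, but both are small counts. The ratio of summed counts was 0.208 (95% counting interval 0.0528 to 0.60), and the log2 fold change was -2.20 (SE 0.639, adjusted p = 0.026). The call was lost without GFP DMSO replicate 1 (adjusted p = 0.0538) or 2 (adjusted p = 0.116), and without GFP dBRD9-A replicate 1 (adjusted p = 0.107) or 2 (adjusted p = 0.0869).

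H19 was at 4.77, 3.42 and 4.60 CPM in GFP dBRD9-A libraries, all below the 3 DMSO values, with replicate 2 lower than the other two. Its log2 fold change was -0.32 (SE 0.0985, adjusted p = 0.0365). Without GFP dBRD9-A replicate 2 it was -0.18 (adjusted p = 0.181), and the call was also lost without GFP DMSO replicate 1 (adjusted p = 0.0765) or 3 (adjusted p = 0.149). With spike-in scaling H19 was at 0.05 (adjusted p = 0.731), where the median of all genes was 0.36.

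PEG10 was at 230, 213 and 221 CPM in GFP dBRD9-A libraries, below every DMSO library. It fell by 0.14 on the log2 scale (SE 0.031, adjusted p = 0.00461). The sign turned with spike-in scaling, to 0.22 (adjusted p = 0.00428), which was still below the median shift of all genes, 0.36. The other 3 did not pass the test. The log2 fold change of PEG3 was -0.14 (SE 0.0758, adjusted p = 0.23), and it was 0.21 with spike-in scaling (adjusted p = 0.0467). DLK1, with 37, 29 and 33 counts, had -0.63 (SE 0.224, adjusted p = 0.0673). MEST, with 2, 0 and 4 counts, had 0.19 (SE 0.735, adjusted p = 0.908).

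With dBRD9-A in SMARCB1 cells, H19 and MEST fell and the other 4 tested genes did not pass the test. That is 2 of the 6 tested, both lower, against 1.93% of all genes tested (0.679% higher and 1.25% lower). H19 was at 15.1, 16.1 and 15.3 CPM with dBRD9-A, and no library overlapped those in DMSO. The ratio of summed counts was 0.503 (95% counting interval 0.478 to 0.531). It fell by 0.99 on the log2 scale (SE 0.0672, adjusted p = 1.14e-07).

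MEST had 95, 151 and 98 counts in SMARCB1 dBRD9-A libraries, at 2.36, 2.78 and 2.28 CPM. All 3 lay below the SMARCB1 DMSO range of 4.40 to 5.10 CPM. MEST fell by 0.94 (SE 0.145, adjusted p = 0.00132). The induced SMARCB1 transcript was itself lower in these libraries, at 1310 ± 27.0 CPM against 1870 ± 59.4 CPM (SD, n = 3), which was lower by 0.52 on the log2 scale (adjusted p = 4.95e-08). Its part in the lower H19 and MEST was not tested.

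PLAGL1 and PEG3 overlapped their SMARCB1 DMSO levels. PLAGL1 was at 6.26, 5.72 and 5.67 CPM, overlapping the DMSO values of 6.28, 6.48 and 5.78 CPM, and the log2 fold change was -0.07 (SE 0.123, adjusted p = 0.894). PEG3 was at 36.9, 37.9 and 37.9 CPM, inside the DMSO range, with -0.04 (SE 0.0527, adjusted p = 0.853). PEG10 had -0.10 (SE 0.0309, adjusted p = 0.113), and its call differed under spike-in scaling (adjusted p = 0.0319) and DESeq2 (adjusted p = 0.0256). DLK1, at 1 to 5 counts, had 0.30 (SE 0.599, adjusted p = 0.918).

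SMARCB1 also separated the members when both cell states were in dBRD9-A. H19, PEG10, PEG3, MEST and PLAGL1 were higher and DLK1 lower, so all 6 tested members were called. Of all genes tested 63.3% were called (33% higher and 30.4% lower). The fold limit was passed by 5 of the 6, against 14.6% of all genes. The log2 fold change was 1.86 for H19 (SE 0.087, adjusted p = 2.99e-12) and 2.35 for PEG3 (SE 0.0652, adjusted p = 1.73e-15). MEST, with 6 summed counts in GFP and 344 in SMARCB1 libraries, had a ratio of 47.6 (95% counting interval 21.6 to 130). Its fitted log2 fold change was 5.52, and 6.50 without GFP dBRD9-A replicate 3, which held 4 of the 6 counts.

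PLAGL1, with 4 summed counts against 806, had a ratio of 167 (95% counting interval 65 to 615). DLK1, with 99 against 10, was 11.9-fold lower in SMARCB1 cells (95% counting interval 6.23 to 25.7). PEG10 had 0.19 (SE 0.0311, adjusted p = 4.1e-05), and its sign turned with spike-in scaling, to -0.14 (adjusted p = 0.0651), where the median of all genes was -0.32. These comparisons share libraries with those above.

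**Figure D2:**
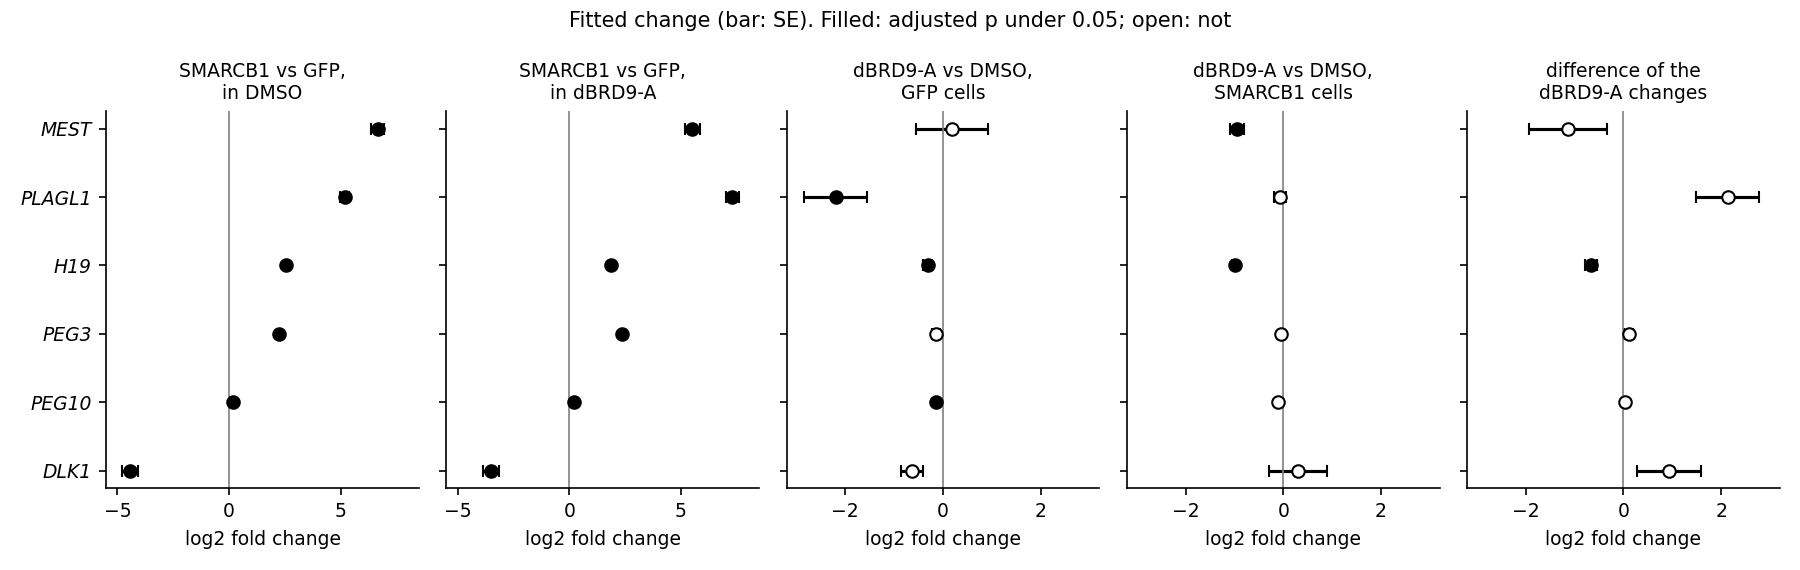
Fitted log2 fold change (horizontal axis, points) with its SE (bars) for the 6 tested genes in 5 comparisons; filled points have an adjusted p under 0.05, and the first 2 panels have a wider axis than the other 3. MEST reached 6.65 and PLAGL1 5.17 with SMARCB1 in DMSO, while with dBRD9-A the filled points were PLAGL1, H19 and PEG10 in GFP cells and H19 and MEST in SMARCB1 cells; with spike-in scaling the signs of H19, PEG10 and PEG3 turned in GFP cells, those of PEG10 in SMARCB1 against GFP cells in dBRD9-A, and those of PEG10 and PEG3 in the last panel.

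The dBRD9-A change itself differed between the cell states for H19 alone, 1 of the 6 tested, against 3.8% of all genes tested (2.15% higher and 1.65% lower). The log2 change of H19 in SMARCB1 cells minus that in GFP cells came to -0.67, with an SE of 0.12 (adjusted p = 0.00294). With spike-in scaling it was -1.17 (adjusted p = 1.61e-07), where the median of all genes was -0.49. For MEST the difference was -1.13 (SE 0.796, adjusted p = 0.538), with 0 to 4 counts in each GFP library. For PLAGL1 it was 2.13 (SE 0.654, adjusted p = 0.0905). This missed the threshold, and passed it with spike-in scaling (adjusted p = 0.0256), without the filter on low counts (0.0272) and without GFP DMSO replicate 3 (0.0165). PEG10 had 0.04, PEG3 0.11 and DLK1 0.93, none past the threshold, and the first pair of these turned sign with spike-in scaling, to -0.46 (adjusted p = 7.54e-05) and -0.39 (adjusted p = 0.00544).

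The neighbours of the members within their imprinted domains were read from a list of 50 other imprinted genes, 48 of which were found and 30 tested. IGF2, the growth factor next to H19, had 5 to 13 counts in GFP DMSO libraries and 6 to 21 in SMARCB1 DMSO libraries. The ranges overlapped, and its call (log2 fold change 1.09, adjusted p = 0.0498) was kept in 2 of 12 fits that left out a library, with 0.206 without SMARCB1 DMSO replicate 1. In the PEG10 domain, SGCE, a sarcoglycan read from the opposite strand, rose with SMARCB1 in DMSO by 0.38, CASD1, a sialic acid acetyltransferase, by 0.57 and PPP1R9A, the actin-binding protein neurabin, by 0.63 on the log2 scale. TFPI2, a serine protease inhibitor of that domain, had 0 counts in all GFP libraries and 106, 122 and 149 in SMARCB1 DMSO libraries. With a floor of 3 counts over the GFP group it was at least 143-fold higher.

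ZIM2, which shares the PEG3 region and strand, had 1 to 5 counts in GFP DMSO and 18 to 30 in SMARCB1 DMSO libraries, a ratio of 10.5 (95% counting interval 5.08 to 25.3). Reads of ZIM2 and PEG3 could be shared between them in the counting. COPG2, a coat protein subunit that overlaps MEST on the opposite strand, was at 7.69 ± 0.0287 CPM in GFP DMSO and 7.80 ± 0.55 in SMARCB1 DMSO libraries (SD, n = 3), and the log2 fold change of 0.03 did not pass the test (adjusted p = 0.732). BLCAP, whose locus holds NNAT on the other strand, went from 19.4 ± 0.821 to 40.6 ± 1.49 CPM (SD, n = 3), while NNAT had no counts. The log2 fold change of BLCAP was 1.07 (adjusted p = 6.37e-13). Whether the authors' counting used strand is not given in the sources used here.

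In the domain of NDN, the genes that were expressed fell with SMARCB1 in DMSO. The splicing factor gene SNRPN fell by 0.84, its upstream reading frame SNURF by 0.55, the small nucleolar RNA host SNHG14 by 0.82 and the ubiquitin ligase gene UBE3A by 0.16 on the log2 scale. SNRPN and SNURF overlap, so their reads are uncertain between them, and UBE3A was at 0.006 with spike-in scaling. MEG8, a noncoding RNA of the DLK1 domain, had 12 counts over the GFP DMSO libraries and 0 over the SMARCB1 DMSO libraries. At the floor of 3 counts it was at least 3.51-fold lower, with no test because it did not pass the filter.

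Over all 30 tested genes of that list, SMARCB1 in DMSO raised 16 and lowered 8, and 6 did not pass the test, against 33.5% of all genes tested higher and 31.6% lower. Their median log2 fold change was 0.43, where that of all genes was -0.0047. The growth restrainers PHLDA2 and CDKN1C belong to the domain next to H19. PHLDA2 rose by 3.01 on the log2 scale (adjusted p = 5.43e-09), and CDKN1C by 2.17 (adjusted p = 2.5e-09). PHLDA2 went from 0.356 ± 0.126 to 2.97 ± 0.0314 CPM and CDKN1C from 0.678 ± 0.0853 to 3.08 ± 0.359 CPM (SD, n = 3). IGF2R, the receptor that clears IGF2, rose by 0.91. ATP10A, a lipid flippase, fell from 1239, 912 and 1157 counts to 0, 1 and 4, a ratio of 581 in favour of GFP cells (95% counting interval 249 to 1790). ZDBF2, a zinc finger gene, fell by 1.77 (SE 0.06, adjusted p = 2.71e-14). In dBRD9-A, SMARCB1 cells had 15 of the 30 higher and 7 lower than GFP cells, against 33% of all genes higher and 30.4% lower. With spike-in scaling these became 11 higher and 14 lower, where 11175 of the 15750 genes were called and 2129 of those were higher, and the split in DMSO became 16 and 5.

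In GFP cells dBRD9-A lowered 5 of the 30 and raised none by edgeR, against 15.9% of all genes called, where the median of the list was 0.003 and that of all genes was -0.0005. PPP1R9A fell by 0.31 (SE 0.0531, adjusted p = 0.000514), GLIS3, a zinc finger factor, by 0.30 (SE 0.0548, adjusted p = 0.000901), ATP10A by 0.24, ZDBF2 by 0.19 and SNHG14 by 0.13 on the log2 scale. The SNHG14 call was kept in 4, that of ATP10A in 7 and that of ZDBF2 in 8 of 12 fits that left out a library. With spike-in scaling all 5 were above 0, from 0.05 to 0.23, and the list had 18 higher and 0 lower, where 11083 of the 15750 genes were called higher. In SMARCB1 cells none of the 30 was called by edgeR or DESeq2, and 3 had an unadjusted p under 0.05 by edgeR. The dBRD9-A change differed between the cell states for 1 of the 30, against 3.8% of all genes. This was PPP1R9A, by 0.34 (SE 0.071, adjusted p = 0.00979), which was -0.16 with spike-in scaling (adjusted p = 0.234). With that scaling 0 of the 30 were called higher and 20 lower, where 11270 of all genes were called and 66 of those were higher.

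**Figure D3:**
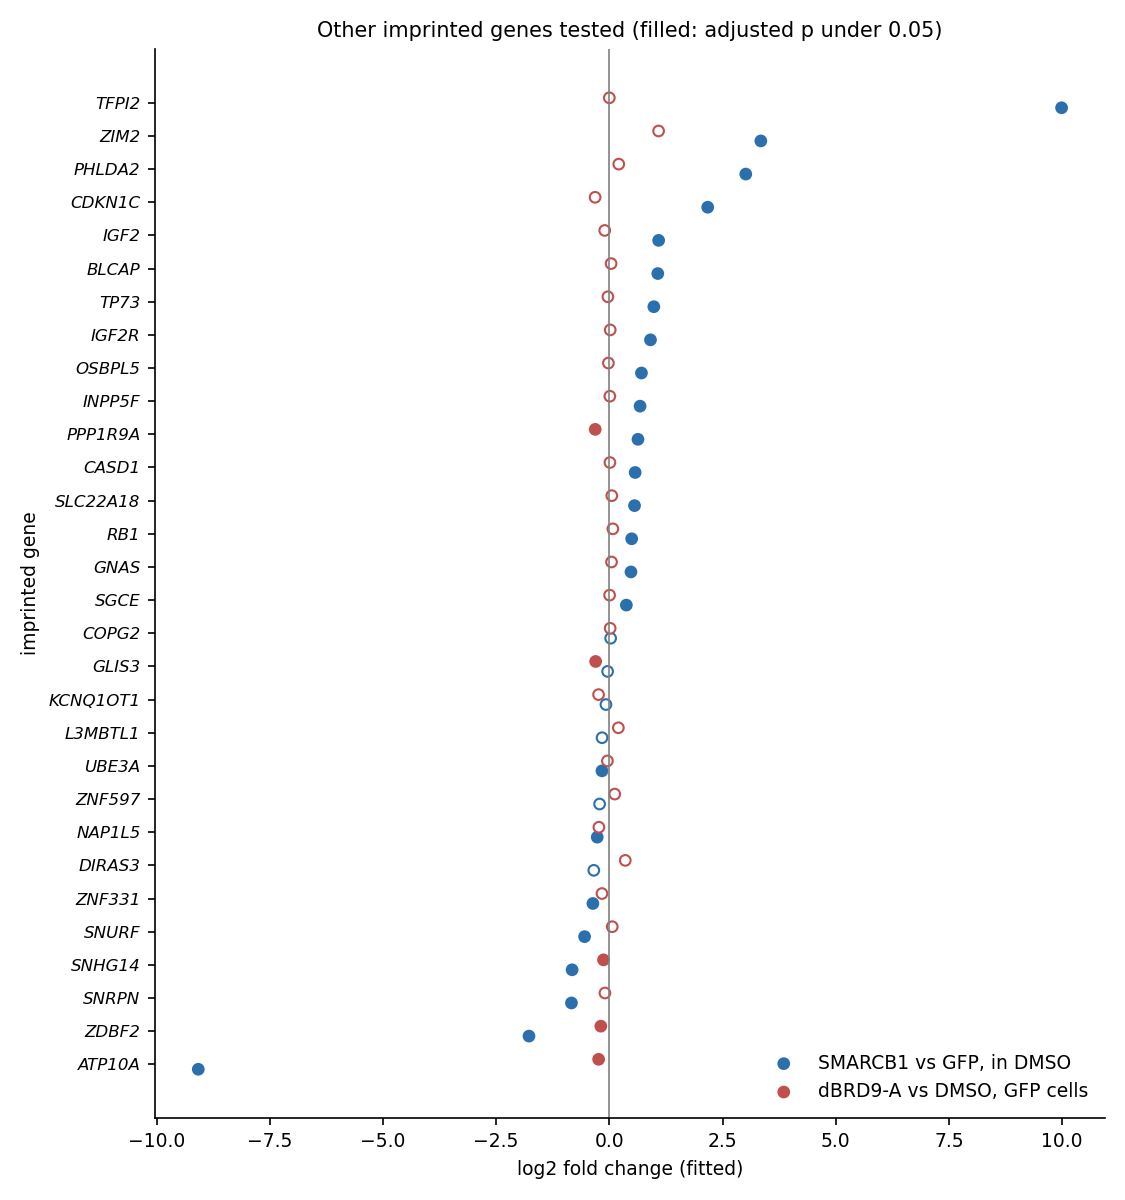
Fitted log2 fold change (horizontal axis) of the 30 other imprinted genes tested (vertical axis, ordered by the SMARCB1 change), for SMARCB1 against GFP cells in DMSO and for dBRD9-A against DMSO in GFP cells; filled points have an adjusted p under 0.05. The SMARCB1 change raised 16 and lowered 8, with TFPI2 and ATP10A at the ends, where 1 group was at or near 0 and the fitted value is no measure of size, and the 5 filled dBRD9-A points changed sign under spike-in scaling.

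Factors that set or keep imprints were read from a list of 16 genes, 15 of which were found and 10 tested. With SMARCB1 in DMSO, 3 rose (DNMT1, CTCF and ZNF445) and 6 fell (ZNF202, TRIM28, DNMT3A, DNMT3B, DNMT3L and SMCHD1), against 33.5% and 31.6% of all genes, and their median log2 fold change was -0.16. With spike-in scaling the split was 4 and 3, and TRIM28, the corepressor bound by imprint-reading zinc finger proteins, was at -0.0008 rather than -0.17. DNMT3B, a DNA methyltransferase that adds new methylation, was at 169 ± 6.41 CPM in GFP DMSO and 93.8 ± 2.55 CPM in SMARCB1 DMSO libraries (SD, n = 3). It fell by 0.85 (SE 0.0317, adjusted p = 1.17e-13). DNMT3L, the inactive partner of the enzymes that add methylation, had 32, 43 and 41 counts in GFP DMSO and 0, 0 and 1 in SMARCB1 DMSO libraries, a ratio of 102 in favour of GFP cells (95% counting interval 17.9 to 4060). DNMT1, the enzyme that copies methylation at replication, rose by 0.16.

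With dBRD9-A in GFP cells DNMT3B rose by 0.18 and DNMT3L fell by 1.60, from 32, 43 and 41 counts to 13, 9 and 7, and the other 8 did not pass the test, against 15.9% of all genes called. DESeq2 called 1 of the 10, and with spike-in scaling 9 were called higher and 1 lower. In SMARCB1 cells none of the 10 was called by edgeR or DESeq2, and 1 had an unadjusted p under 0.05 by edgeR. In dBRD9-A, SMARCB1 cells had 4 of the 10 higher and 6 lower, against 33% and 30.4% of all genes, which became 0 higher and 9 lower with spike-in scaling. DESeq2 called 9 of the 10 there. The call of SETDB1, also on the list, was kept in 3 of 12 fits that left out a library, that of DNMT1 in 9 and that of SMCHD1 in 10. The dBRD9-A change of DNMT3B differed between the cell states by -0.17 (SE 0.0447, adjusted p = 0.0488). That call was kept in 2 of 12 fits that left out a library (0.125 without SMARCB1 DMSO replicate 3), and was lost with the replicate block (0.0721).

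**Figure D4:**
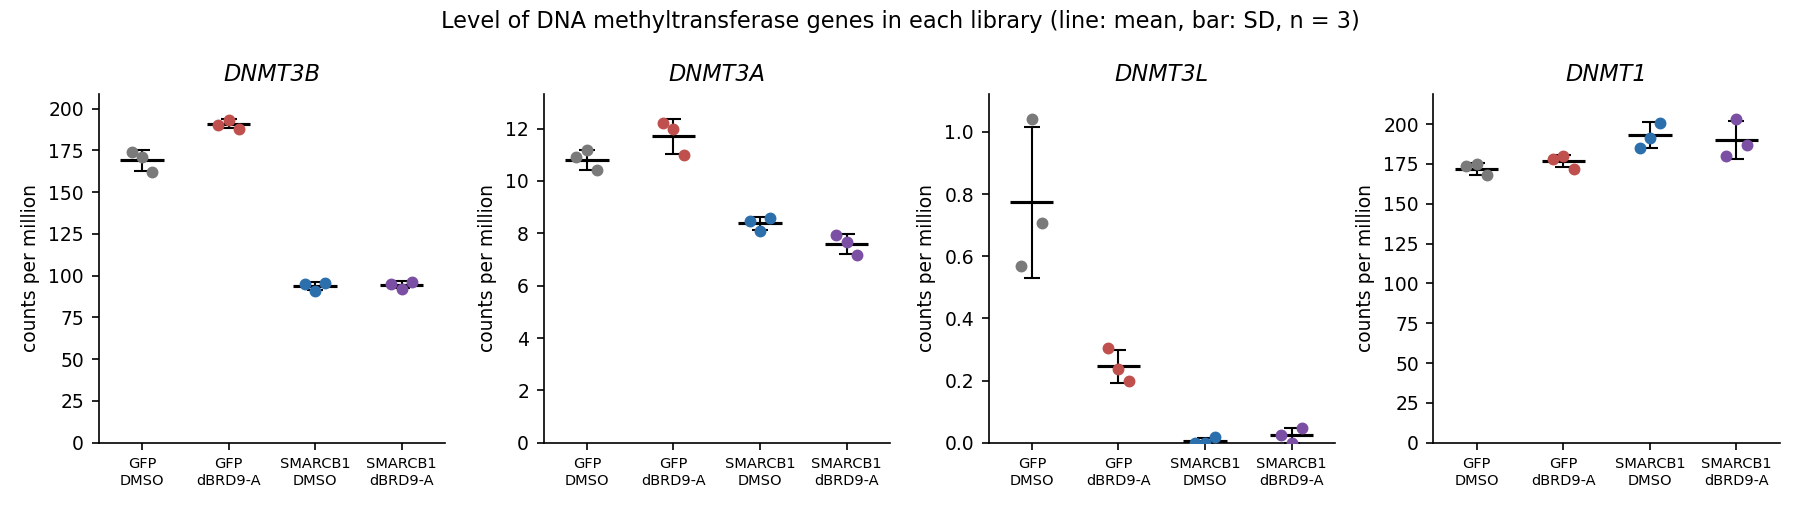
Level in CPM (vertical axis, from 0, a separate scale in each panel) of 4 DNA methyltransferase family genes in each of the 12 libraries by group; points are libraries, horizontal lines means and bars SD (n = 3). DNMT3B was at 169 in GFP DMSO and 93.8 in SMARCB1 DMSO libraries, DNMT3L was near 0 in SMARCB1 cells, and DNMT1 was at 172 in GFP DMSO and 193 in SMARCB1 DMSO libraries.

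For members with a mean of at least 50 counts, the gene with the most similar profile was found among 12585 genes. Likeness was the root mean square difference of log2(CPM + 0.5), centred for each gene, over the 12 libraries, which share their depth and group structure. For H19 it was MMP10, a secreted protease, at 0.182, where the spread of H19 itself was 1.11. MMP10 was at 0.301, 0.076, 4.45 and 1.89 CPM in GFP DMSO, GFP dBRD9-A, SMARCB1 DMSO and SMARCB1 dBRD9-A libraries. Its GFP levels lay below the added 0.5 CPM, which compresses fold changes, so likeness here does not mean equal fold changes. MEST and PLAGL1 were also below 0.5 CPM in GFP cells. For PEG3 the nearest gene was FUCA2, a fucosidase, at 0.0837. For PLAGL1 it was DPYSL2, a microtubule-binding protein, at 0.144, and for PEG10 HOMER2, a scaffold protein, at 0.0299. The spread of the member itself was 1.11 for PEG3, 1.73 for PLAGL1 and 0.11 for PEG10. PEG10 varied least, so a small difference says less for it. Among the members themselves, H19 and PEG3 were 0.368 apart, H19 and MEST 0.407, and MEST and PLAGL1 0.441.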

How the data were processed

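Polyadenylated RNA libraries were made with a stranded TruSeq kit, per the labels' protocols. The authors deposited 3 tables of expected counts per gene, in which 6 libraries occur in 2 tables with identical values. STAR, RSEM 1.3.1 and DESeq2, and the names GRCh37 and hg19, come from the submitters' processing notes; the annotation and strand setting are not given in the sources used here. Expected counts were rounded, and 40 ERCC spike-in rows were left out of library sizes. Of 57820 identifiers, 51996 matched a symbol.

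edgeR 4.0.16 (R 4.3.3) quasi-likelihood tests with TMM scaling (factors 0.9765 to 1.016), filterByExpr at a minimum count of 10 and Benjamini-Hochberg adjustment over 15750 genes used all 12 libraries in 1 fit. Calls were at an adjusted p under 0.05. SE is the absolute log2 fold change over the square root of F. CPM uses the sum over genes times the TMM factor, while ratios of summed counts and the floor of 3 counts use the sum alone. Ratios of summed counts have exact 95% intervals (Clopper-Pearson), which, like the floor of 3 counts, cover counting error only. The fit was tested on simulated data.

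The named genes were the 10 members, SMARCB1, tested domain neighbours, up to 2 rises and 2 falls per comparison among the remaining imprinted genes (mean of at least 50 counts, no overlap) and nearest profiles (that of MEST is not reported here). MEG8, IGF2R, TRIM28, SETDB1, the methyltransferases and markers were named after their values were seen. Members and lists were chosen with earlier results of these data known. Alternatives were spike-in scaling, DESeq2 1.42.0, no filter, the compared groups alone, a fold limit, a replicate block and leaving out each library.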

Additional observations from a re-analysis of the deposited data

Results flagged for a closer look

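For 3 genes the change with dBRD9-A differed between SMARCB1 and GFP cells by the interaction test of edgeR over 12 libraries. H19 differed by -0.67 on the log2 scale (adjusted p = 0.00294), and by -1.17 with spike-in scaling. PPP1R9A differed by 0.34 (adjusted p = 0.00979), and by -0.16 with spike-in scaling (adjusted p = 0.234). DNMT3B differed by -0.17 (adjusted p = 0.0488). The DNMT3B call was kept in 2 of 12 fits that left out a library. The highest adjusted p among them was 0.125, where SMARCB1 DMSO replicate 3 was left out. The difference was -0.66 with spike-in scaling (adjusted p = 1.63e-06).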

How the results depend on the processing

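Of 30 results (6 genes in 5 comparisons), 18 passed the threshold, and 14 of those passed in the same direction under every alternative other than the fold limit, 16 with spike-in scaling also left out. Of 532 values under these alternatives, 510 kept their side of the threshold, with the same direction where they passed it. Changes of sign between values that both missed the threshold are among the 510, such as MEST with dBRD9-A in GFP cells (-0.80 to 0.74). Under spike-in scaling the median of all genes was 0.17, 0.36, -0.14, -0.32 and -0.49 (SMARCB1 in DMSO, dBRD9-A in GFP cells, dBRD9-A in SMARCB1 cells, SMARCB1 in dBRD9-A, interaction). The 6 values that turned sign under it were, for dBRD9-A in GFP cells, H19 at 0.046, PEG10 at 0.22 and PEG3 at 0.21, for SMARCB1 in dBRD9-A, PEG10 at -0.14, and for the interaction, PEG10 at -0.46 and PEG3 at -0.39. The cause was not tested. The interaction count went from 1 to 4 with spike-in scaling, 2 with no filter on low counts and 0 with the fold limit. With that limit the count was 1 for dBRD9-A in GFP cells and 0 in SMARCB1 cells. Leaving out each library gave 6 in both SMARCB1 comparisons, 1 to 4 for dBRD9-A in GFP cells, 2 in SMARCB1 cells and 1 to 2 for the interaction.

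Compared groups alone, dBRD9-A in GFP cells gave an adjusted p of 0.0657 for H19, 0.0567 for PLAGL1 and 0.037 for DLK1, which also passed without SMARCB1 dBRD9-A replicate 3 (0.0436). Same-numbered libraries did not deviate together (correlations -0.089 to 0.057 over 18 pairs). With the replicate block the counts were 6, 3, 2, 6 and 1, as without it, and H19 with dBRD9-A in GFP cells was at -0.31 (adjusted p = 0.0481). Among the other lists the block lost IGF2 with SMARCB1 in DMSO (0.068), SNHG14 with dBRD9-A in GFP cells (0.077) and the DNMT3B interaction (0.0721). Depth limits MEG3, NNAT, NDN, GRB10 and the GFP levels of MEST and PLAGL1.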
